A study of Rattus norvegicus with 17 samples.

Results

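The genes Dnm1, Amph, Bin1, Synj1, Pip5k1c, Eps15, Epn1, Snap91 and Picalm code proteins that shape, cut and uncoat the clathrin-coated vesicles by which a nerve terminal takes back its synaptic vesicle membrane. They were taken from a list of endocytosis genes, several of which code substrates of the phosphatase calcineurin. All 9 genes listed were present among the 11247 gene labels of the deposited table. Picalm is the broadly expressed relative of Snap91 and is not one of the classical calcineurin substrates.

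In a resting terminal several of these proteins are phosphorylated. Calcium entry during firing activates calcineurin, which strips their phosphates together (hence the name dephosphins). These substrates then assemble with one another and with the coat. Cdk5, Gsk3 and Dyrk1a are among the kinases that put phosphates back. FK506 is an immunophilin ligand that inhibits calcineurin. Messenger RNA was measured here, and neither protein nor phosphorylation.

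The libraries came from rat primary cultures of cerebral cortex, which the labels describe as glutamatergic neurons with astrocytes. The cultures carried the variant A53T of alpha-synuclein, a cause of inherited Parkinson's disease, or an Empty Vector, and received FK506 at 0.2 µM (called sub-saturating) or 2.0 µM (called saturating), or DMSO as the vehicle. The 6 groups were A53T with DMSO (2 libraries), A53T with 0.2 µM, A53T with 2.0 µM, Empty Vector with DMSO, Empty Vector with 0.2 µM and Empty Vector with 2.0 µM (3 libraries each). Not given in the sources used here are the promoter of the A53T construct, the age of the cultures and the time in drug. The labels do not say whether replicate libraries are separate cultures, so each p-value is set against the spread of these libraries alone, which may be technical.

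The normalized values of a library summed to between 15091428 and 18335540; its depth in raw reads is unknown. Squared differences between the 3 libraries of A53T at 0.2 µM were compared with those expected from counting noise for values of that size. Such noise is defined for raw counts, and these values were normalized by a method not stated. The ratio therefore depends on an unknown scale. For genes with means of 10 to 3000, the median ratio was 0.993 to 1.04, and these libraries were counted as 1 sample by their mean. For library pairs of other groups this ratio was 1.46 to 13.7. Among higher genes, where several of the 9 members lie, the A53T libraries at 0.2 µM exceeded that noise. Their ratio was 1.19 to 1.75 for means of 3000 to 10000 and 1.53 to 2.65 above 10000. Pairs of other groups had ratios of at least 2.96 and 7.93 in these ranges. The titles number the A53T DMSO libraries 1 and 2 and the table numbers them 1 and 3, so the second is called unnumbered here. Deviations from the group means shared a leading axis that held 54.3% of the within-group variance over 14 libraries. On it the A53T libraries at 0.2 µM scored 4.98 to 5.02 and the others -2.42 to 1.52, with Empty Vector at 0.2 µM replicate 1, Empty Vector at 2.0 µM replicate 2 and A53T at 2.0 µM replicate 1 standing apart from their groups.

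Markers of the labelled cells were present. Over 17 of 18 pan-neuronal markers the summed normalized count was 97066 to 113822 in A53T at 2.0 µM and 110319 to 113000 in A53T DMSO, and 89735 to 95224 in Empty Vector at 2.0 µM and 120590 to 127070 in Empty Vector DMSO. Over 12 of 12 glutamatergic markers the sums were 24759 to 26718 in A53T at 2.0 µM and 34629 to 36097 in A53T DMSO, and 28153 to 29863 in Empty Vector at 2.0 µM and 39724 to 41123 in Empty Vector DMSO. Over 11 of 12 astrocyte markers they were 52755 to 54880 in A53T at 2.0 µM and 84070 to 87850 in A53T DMSO, and 45203 to 46103 in Empty Vector at 2.0 µM and 104127 to 105749 in Empty Vector DMSO. Glutamatergic and astrocyte sums were thus lower at 2.0 µM in both cultures without overlap, and pan-neuronal sums in Empty Vector only, since those of A53T overlapped. At 2.0 µM, 8 pan-neuronal, 8 glutamatergic and 5 astrocyte markers were called lower in A53T (1, 0 and 3 higher), and 12, 7 and 9 in Empty Vector (0, 1 and 2 higher). The shares of all genes called in the same comparisons were 17.9% lower and 19.7% higher in A53T, and 23.8% lower and 23.4% higher in Empty Vector. GABAergic markers (11 of 12) summed to 14350 to 16333 in A53T at 2.0 µM and 20843 to 21146 in A53T DMSO, and to 15563 to 17116 in Empty Vector at 2.0 µM and 36506 to 39992 in Empty Vector DMSO. Oligodendrocyte lineage markers (8 of 11) summed to 5011 to 5086 in A53T at 2.0 µM and 3697 to 3727 in A53T DMSO, and to 2369 to 2454 in Empty Vector at 2.0 µM and 4178 to 4269 in Empty Vector DMSO. At 2.0 µM the GABAergic sums were thus lower in both cultures, and the oligodendrocyte lineage sums higher in A53T and lower in Empty Vector. Fibroblast and vascular markers (5 of 10) summed to 270 to 341 in A53T at 2.0 µM and 527 to 612 in A53T DMSO, and to 434 to 456 in Empty Vector at 2.0 µM and 901 to 972 in Empty Vector DMSO. In bulk libraries, fewer cells of a type and less RNA per cell cannot be told apart, and the part of either in the results below was not tested.

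Dnm1 was called lower at both doses in both cultures, though at 0.2 µM not with quantile normalization. Synj1 was the member with the largest difference in A53T at 0.2 µM. The sequence before the start of these 2 genes is shown first. Each is the 250 bases before the gene's start from RefSeq on build GRCr8, read along the minus strand; the deposited counts used the older build rn6. Capitals mark matches to TGACG, contained in the cyclic AMP response element TGACGTCA, and to GGAAA, the core bound by the calcineurin-dependent NFAT factors (TTTCC on the other strand).
Dnm1, chr3:36046290-36046539: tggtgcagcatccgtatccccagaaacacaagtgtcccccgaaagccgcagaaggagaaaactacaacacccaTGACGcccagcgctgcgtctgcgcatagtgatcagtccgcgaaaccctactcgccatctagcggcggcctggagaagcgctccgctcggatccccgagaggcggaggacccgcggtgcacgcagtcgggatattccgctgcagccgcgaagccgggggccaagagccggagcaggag
Synj1, chr11:43755527-43755776: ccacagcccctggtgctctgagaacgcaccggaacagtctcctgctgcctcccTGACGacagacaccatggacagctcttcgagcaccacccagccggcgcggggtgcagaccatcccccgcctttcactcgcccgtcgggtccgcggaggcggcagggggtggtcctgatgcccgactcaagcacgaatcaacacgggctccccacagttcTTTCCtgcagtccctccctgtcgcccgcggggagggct

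A window of 250 bases before and 50 after the start was found for 8 of the 9 genes; Snap91 had no entry. On both strands, the 8-letter TGACGTCA was in none of the 8 windows, against 3.36% of the 8581 promoters of genes in the table. TGACG was in the windows of Dnm1, Bin1, Synj1, Epn1 and Picalm, against 32.5% of all those promoters, and GGAAA was in those of Amph, Synj1, Eps15 and Epn1, against 57.5%. These matches are letters in a window and not measured sites. All 8 windows had a GC content above the median of 61.3%, from 61.7% for Amph to 77.3% for Picalm, and CpG counts of 18 (Amph) to 34 (Dnm1) against a median of 21.

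At 2.0 µM FK506, 5 of the 9 genes fell in A53T cultures (Dnm1, Pip5k1c, Amph, Synj1 and Snap91) and 3 fell in Empty Vector cultures (Dnm1, Pip5k1c and Bin1); none rose. Among all genes, 17.9% were called lower and 19.7% higher in A53T, and 23.8% lower and 23.4% higher in Empty Vector, so the 3 of 9 in Empty Vector is near the background. The count of 5 in A53T was 3 without A53T DMSO replicate 1, 2 without the unnumbered A53T DMSO library and 3 with only the compared groups in the fit, in which 18.7%, 16.3% and 15.9% of all genes were called in either direction, against 37.6% with all libraries. The sums of 10 of 12 ribosomal protein genes were higher at 2.0 µM than in DMSO. They were 161383 to 233554 in A53T at 2.0 µM and 127772 to 135281 in A53T DMSO (7 called higher). In Empty Vector they were 136009 to 176875 at 2.0 µM and 114703 to 129944 in DMSO (3 called higher). The part of this shift in the members' falls was not tested. Dnm1 and Pip5k1c fell in both cultures, to between 67.5% and 71.2% of the DMSO mean. The other members differed between cultures, between doses or between replicates, as follows. A log2 fold change is given on the log2(normalized count + 1) scale with its standard error, and adjusted p is limma's with Benjamini-Hochberg adjustment over all 11247 genes, with calls made under 0.05.

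**Figure D1:**
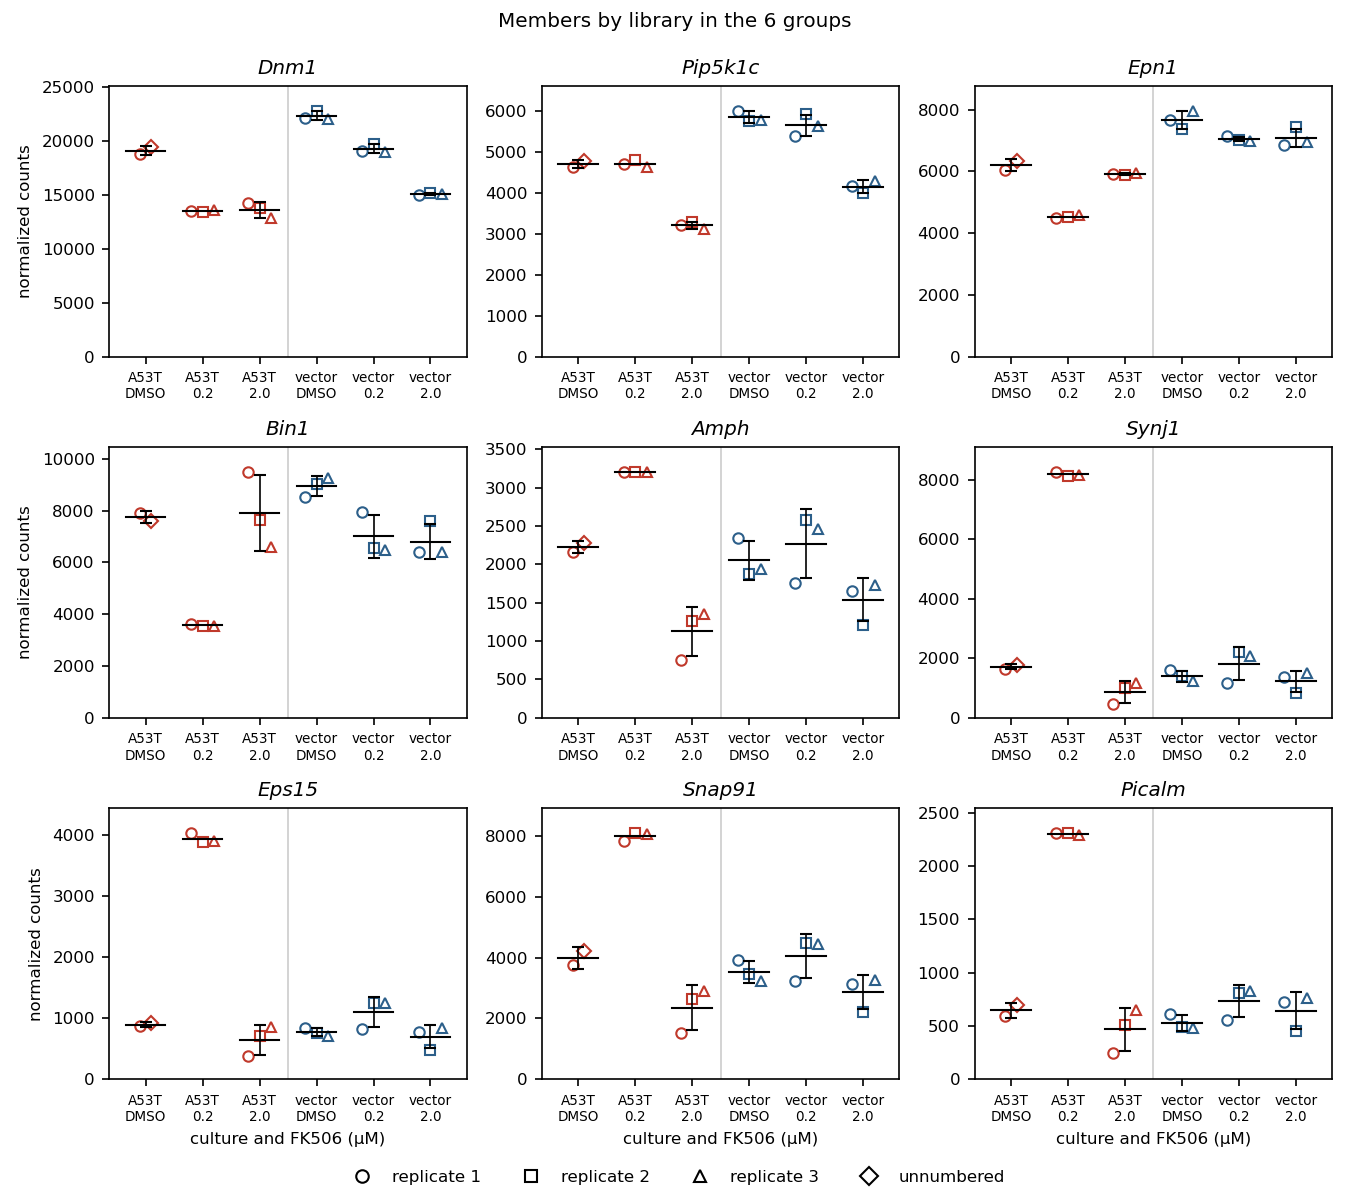
Normalized counts of the 9 genes in each library (y axes, from 0) for the 6 groups (x axes, FK506 in µM), A53T in red and Empty Vector in blue; symbols give the replicate number, the line is the group mean and the bar its SD, with no SD for A53T at 0.2 µM, counted as 1 sample. Dnm1 and Pip5k1c are lower at 2.0 µM than in DMSO in both cultures, while Synj1, Eps15, Snap91 and Picalm stand highest in the A53T libraries at 0.2 µM.

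Dnm1 codes neuronal dynamin, the GTPase that severs the neck of the budding vesicle. In A53T cultures its normalized counts were 18766 and 19387 in DMSO, 13466, 13395 and 13539 at 0.2 µM, and 14232, 13747 and 12797 at 2.0 µM. In Empty Vector cultures they were 22073, 22777 and 22017 in DMSO, 19071, 19713 and 18949 at 0.2 µM, and 14934.5, 15157 and 15052.5 at 2.0 µM. Every FK506 library lay below every DMSO library of the same culture, and in Empty Vector cultures the 2.0 µM libraries also lay below those at 0.2 µM. The group means ± SD were 13592 ± 730 in A53T at 2.0 µM and 19077 ± 438.8 in A53T DMSO, and 15048 ± 111.5 in Empty Vector at 2.0 µM and 22289 ± 423.2 in Empty Vector DMSO.

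Dnm1 fell at 2.0 µM by 0.49 ± 0.06 on the log2 scale in A53T (adjusted p = 7.5e-05) and by 0.57 ± 0.05 in Empty Vector (adjusted p = 2e-06). Both calls held under every alternative run, with values of -0.59 to -0.45 in A53T and -0.58 to -0.51 in Empty Vector. At 0.2 µM it fell by 0.50 ± 0.08 in A53T (adjusted p = 0.00015) and by 0.21 ± 0.05 in Empty Vector (adjusted p = 0.013). In Empty Vector it was lower at 2.0 µM than at 0.2 µM by a log2 difference of -0.35 ± 0.05 (adjusted p = 0.00023). Quantile normalization ended the call at 0.2 µM in A53T (-0.13, adjusted p = 0.293) and in Empty Vector (-0.04, adjusted p = 0.738); the Empty Vector call was also lost without Empty Vector DMSO replicate 2 (adjusted p = 0.0585) or without Empty Vector at 0.2 µM replicate 3 (adjusted p = 0.0596).

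Without drug, Dnm1 was lower in A53T than in Empty Vector (-0.22 ± 0.06, adjusted p = 0.019). That call was lost without A53T DMSO replicate 1 (adjusted p = 0.176), without the unnumbered A53T DMSO library (0.0896), without Empty Vector DMSO replicate 2 (0.0669) and with quantile normalization (0.126). At 2.0 µM the A53T libraries all lay below the Empty Vector libraries, with a log2 difference of -0.15 ± 0.05 that did not pass (adjusted p = 0.056). In order of its means, Dnm1 was highest in Empty Vector DMSO, followed by Empty Vector at 0.2 µM and A53T DMSO, whose libraries overlapped, then by Empty Vector at 2.0 µM, and lowest in A53T at 2.0 µM and A53T at 0.2 µM, which overlapped.

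Pip5k1c codes the type I gamma kinase that makes the phosphatidylinositol bisphosphate to which coat adaptors bind. In A53T cultures its normalized counts were 4645 and 4771 in DMSO, 4708, 4807 and 4633.5 at 0.2 µM, and 3212, 3291 and 3125 at 2.0 µM. In Empty Vector cultures they were 6013, 5752 and 5788 in DMSO, 5397, 5923 and 5628 at 0.2 µM, and 4179.8, 3988 and 4296 at 2.0 µM. The 2.0 µM libraries lay below all DMSO and 0.2 µM libraries of the same culture, while the 0.2 µM and DMSO libraries overlapped in both cultures.

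Pip5k1c fell at 2.0 µM to 68.2% of the DMSO mean in A53T (-0.55 ± 0.06, adjusted p = 2.9e-05) and to 71.0% in Empty Vector (-0.49 ± 0.05, adjusted p = 5.4e-06). Both calls held under every alternative run. At 0.2 µM its log2 fold change was 0.00 ± 0.07 in A53T (adjusted p = 0.98) and -0.05 ± 0.05 in Empty Vector (adjusted p = 0.48), and in Empty Vector it was lower at 2.0 than at 0.2 µM (-0.44 ± 0.05, adjusted p = 4.5e-05). Pip5k1c was also lower in A53T than in Empty Vector, both in DMSO (-0.31 ± 0.06, adjusted p = 0.0031) and at 2.0 µM (-0.37 ± 0.05, adjusted p = 0.00037). The DMSO difference was not called without A53T DMSO replicate 1 (-0.29, adjusted p = 0.0536) or with quantile normalization (-0.22, adjusted p = 0.0815). A53T DMSO averaged 4707.9 ± 88.76 and Empty Vector DMSO 5850.9 ± 141.4, and A53T at 2.0 µM averaged 3209.2 ± 83.02 and Empty Vector at 2.0 µM 4154.4 ± 155.5 (SD, n = 2 for A53T DMSO and n = 3 for the others).

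Synj1 codes synaptojanin, the phosphatase that removes the same lipid so that the coat can come off. In A53T cultures its normalized counts were 1651 and 1774 in DMSO, 8264, 8132 and 8142 at 0.2 µM, and 451.5, 1007.5 and 1168 at 2.0 µM. In Empty Vector cultures they were 1594, 1387 and 1226.5 in DMSO, 1185, 2209.5 and 2060.3 at 0.2 µM, and 1356.5, 832 and 1488 at 2.0 µM. The A53T libraries at 0.2 µM stood above all 14 others, and the A53T libraries at 2.0 µM stood below both A53T DMSO libraries, while the Empty Vector groups overlapped.

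In A53T, Synj1 rose at 0.2 µM by 2.26 ± 0.50 on the log2 scale (adjusted p = 0.0017) and fell at 2.0 µM by 1.08 ± 0.37 (adjusted p = 0.038). The fall at 2.0 µM rested in part on A53T at 2.0 µM replicate 1, the lowest library of all: without it the value was -0.66 (adjusted p = 0.102). That call was also lost without either A53T DMSO library (adjusted p = 0.122 and 0.165), without Empty Vector DMSO replicate 2 (0.052), and with only the compared groups in the fit (0.0956). In Empty Vector its log2 fold change was 0.33 ± 0.33 at 0.2 µM (adjusted p = 0.5) and -0.23 ± 0.33 at 2.0 µM (adjusted p = 0.6).

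Amph codes amphiphysin, whose BAR domain bends membrane and which brings dynamin to the vesicle neck. In A53T cultures its normalized counts were 2166.5 and 2282 in DMSO, 3201, 3203 and 3207 at 0.2 µM, and 757.2, 1268 and 1354 at 2.0 µM. In Empty Vector cultures they were 2344, 1881 and 1937 in DMSO, 1752, 2584 and 2464 at 0.2 µM, and 1656, 1215 and 1736.5 at 2.0 µM. The 2.0 µM libraries lay below the DMSO libraries in both cultures, and the A53T libraries at 0.2 µM above them. Amph fell at 2.0 µM in A53T (-1.03 ± 0.24, adjusted p = 0.006), a call lost without the unnumbered A53T DMSO library (-0.99, adjusted p = 0.0536). In Empty Vector at 2.0 µM the value was -0.43 ± 0.21 (adjusted p = 0.12), and in A53T at 0.2 µM it was 0.53 ± 0.32 (adjusted p = 0.16).

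Bin1 codes amphiphysin 2, the partner of amphiphysin at the nerve terminal, and also isoforms outside neurons. With A53T its normalized counts were 7915 and 7589.9 in DMSO, 3625, 3550.2 and 3553 at 0.2 µM, and 9503, 7627 and 6603 at 2.0 µM. In Empty Vector cultures they were 8524, 9024 and 9276 in DMSO, 7954, 6572 and 6487 at 0.2 µM, and 6404, 7607 and 6413 at 2.0 µM. The direction at 0.2 µM in A53T was opposite to that of Amph and Synj1, with all 3 libraries below all others. Bin1 fell at 0.2 µM in A53T (-1.12 ± 0.18, adjusted p = 0.00024) and at 2.0 µM in Empty Vector (-0.40 ± 0.12, adjusted p = 0.016), while at 2.0 µM in A53T it was 0.01 ± 0.13 (adjusted p = 0.95). The Empty Vector call was lost without Empty Vector DMSO replicate 3 (adjusted p = 0.053), Empty Vector at 2.0 µM replicate 1 (0.0597) or its replicate 3 (0.0569).

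Epn1 codes epsin, an adaptor that inserts a helix into the membrane and binds clathrin. With A53T its normalized counts were 6057 and 6346 in DMSO, 4476, 4505 and 4584 at 0.2 µM, and 5909, 5872 and 5936 at 2.0 µM. In Empty Vector cultures they were 7667, 7355 and 7966 in DMSO, 7131, 7016 and 6991 at 0.2 µM, and 6865.5, 7425 and 6939 at 2.0 µM. Every A53T library lay below every Empty Vector library. Epn1 was lower in A53T than in Empty Vector in DMSO (-0.30 ± 0.05, adjusted p = 0.0029) and at 2.0 µM (-0.26 ± 0.05, adjusted p = 0.003). The DMSO call was lost without A53T DMSO replicate 1 (-0.27, adjusted p = 0.0581), and the call at 2.0 µM with only those 2 groups in the fit (-0.26, adjusted p = 0.0551). Epn1 fell at 0.2 µM in A53T (-0.46 ± 0.07, adjusted p = 0.0002; -0.25 with quantile normalization), and 2.0 µM against DMSO gave -0.07 ± 0.05 in A53T (adjusted p = 0.3) and -0.11 ± 0.05 in Empty Vector (adjusted p = 0.066).

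Eps15 codes a scaffold that gathers adaptors at the forming pit. With A53T its normalized counts were 859.8 and 916.8 in DMSO, 4027, 3875 and 3893 at 0.2 µM, and 373.8, 696.3 and 845 at 2.0 µM; in Empty Vector cultures all libraries lay between 478.1 and 1239. The A53T libraries at 0.2 µM stood above all others, and those at 2.0 µM below both A53T DMSO libraries. It rose at 0.2 µM in A53T (2.15 ± 0.42, adjusted p = 0.00072), and its differences in the other comparisons did not pass, with -0.56 ± 0.31 at 2.0 µM in A53T (adjusted p = 0.17; -0.21 without replicate 1 of that group) and -0.18 ± 0.28 in Empty Vector (adjusted p = 0.62).

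Snap91 codes AP180, the neuronal adaptor that helps set vesicle size, and Picalm codes its relative CALM. Snap91 had normalized counts of 3745 and 4237 in A53T DMSO, 7863, 8112 and 8083 in A53T at 0.2 µM, and 1503, 2628 and 2901 in A53T at 2.0 µM. The Snap91 counts in A53T at 2.0 µM were all below those in A53T DMSO, while those in Empty Vector ran from 2218 at 2.0 µM to 4494 at 0.2 µM and overlapped with DMSO at both doses. In A53T, Snap91 rose at 0.2 µM (1.01 ± 0.34, adjusted p = 0.018) and fell at 2.0 µM (-0.82 ± 0.25, adjusted p = 0.023). The rise was not called without A53T DMSO replicate 1 (0.92, adjusted p = 0.0679), and the fall was not called without either A53T DMSO library (-0.91 and -0.73, adjusted p = 0.0732 and 0.143) or with only the compared groups in the fit (adjusted p = 0.0837). Without A53T at 2.0 µM replicate 1 the fall of Snap91 was smaller, at -0.53 (adjusted p = 0.0485).

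Picalm had normalized counts of 595.9 and 693.4 in A53T DMSO, 2309.5, 2311 and 2290.3 in A53T at 0.2 µM, and 245.1, 503.2 and 647 in A53T at 2.0 µM. In Empty Vector all Picalm values lay between 446.5 and 825, with the 3 groups overlapping. It rose at 0.2 µM in A53T (1.84 ± 0.46, adjusted p = 0.0036), and at 2.0 µM its log2 fold change was -0.58 ± 0.34 in A53T (adjusted p = 0.19) and 0.26 ± 0.31 in Empty Vector (adjusted p = 0.52). Without A53T at 2.0 µM replicate 1 the A53T value of Picalm was -0.17 (adjusted p = 0.622), and without replicate 3 it was -0.87 (adjusted p = 0.0486).

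**Figure D2:**
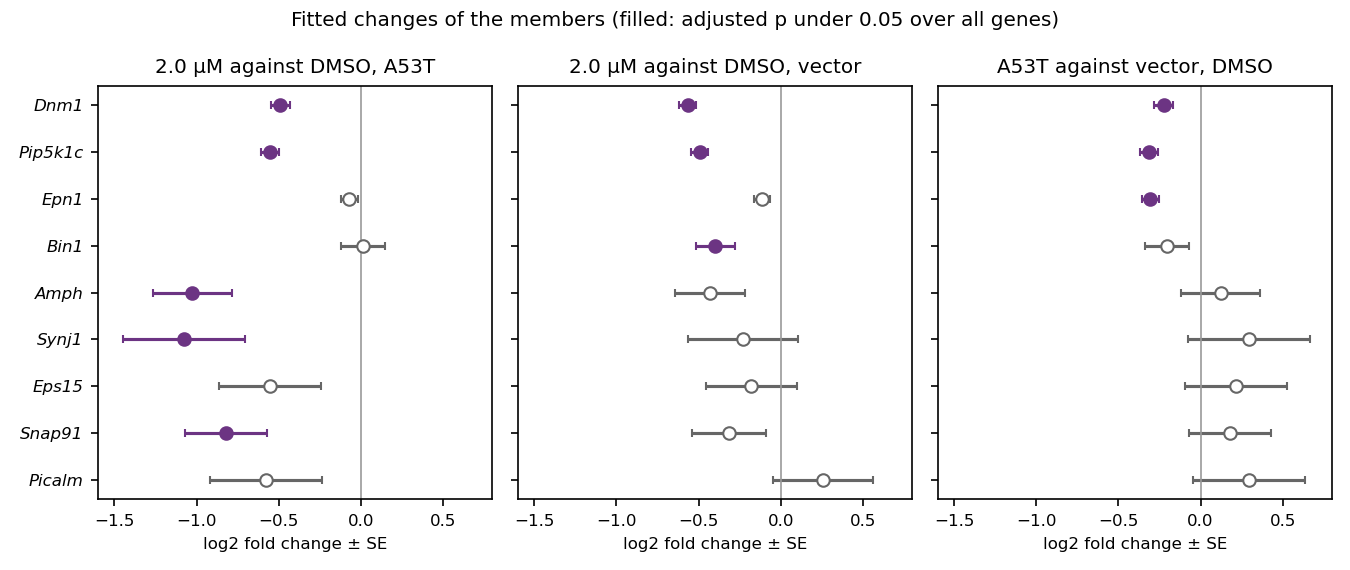
Fitted log2 fold change of each gene (x axes, bars are standard errors) for 2.0 µM FK506 against DMSO in A53T, the same in Empty Vector, and A53T against Empty Vector in DMSO; filled points passed an adjusted p of 0.05 over all genes. Dnm1 and Pip5k1c are filled and below 0 in all 3 panels, and no point is filled above 0.

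Across the 8 comparisons the members were called as follows. In A53T against Empty Vector in DMSO, the comparison of the constructs without drug, Dnm1, Pip5k1c and Epn1 were lower and none was higher. There, 14% of all genes were called (5.85% higher and 8.19% lower). No group carried wild-type alpha-synuclein, so the variant and added synuclein as such cannot be told apart. In Empty Vector, 1 member (Dnm1) was called at 0.2 µM, where 18.3% of all genes were called (7.7% higher and 10.6% lower). There, 2 members (Dnm1 and Pip5k1c) were called at 2.0 against 0.2 µM, both lower, where 33.7% of all genes were called (18% higher and 15.7% lower). At 2.0 µM FK506 against DMSO the members' 5 and 3 calls stand beside 37.6% of all genes called in A53T and 47.2% in Empty Vector. The comparison of A53T with Empty Vector at 2.0 µM called 2 members lower (Pip5k1c and Epn1) where 19.6% of all genes were called (9.88% higher and 9.7% lower).

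The test of whether 2.0 µM acted differently in the 2 cultures, an interaction term in limma, called 0 of the 9 members where it called 14.6% of all genes (8.14% higher and 6.45% lower). Before adjustment, limma's p was under 0.05 for Bin1 alone (0.041). Its values ran from -0.85 ± 0.50 for Synj1 to 0.41 ± 0.18 for Bin1, with 0.08 ± 0.08 for Dnm1 and -0.06 ± 0.07 for Pip5k1c. The fall of Amph, Synj1 and Snap91 in A53T and not in Empty Vector is therefore not shown to be a difference between the cultures. Both dose comparisons within a culture share that culture's DMSO libraries.

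Counted by libraries that do not overlap, 7 of 9 members were separated at 2.0 µM against DMSO in A53T and 4 of 9 in Empty Vector, where 64.5% and 60.5% of all genes were. The counts were 6 of 9 for A53T against Empty Vector in DMSO (60.4% of all genes), 8 of 9 at 0.2 µM in A53T (89.4%), 3 of 9 at 0.2 µM in Empty Vector (38.7%), 3 of 9 at 2.0 against 0.2 µM in Empty Vector (45.2%) and 3 of 9 for A53T against Empty Vector at 2.0 µM (33%). The members' shares were thus near those of all genes or below them, and are no result about these genes.

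At 0.2 µM in A53T cultures, 7 of the 9 members were called, 4 higher and 3 lower, where 67.8% of all genes were called (33.6% higher and 34.2% lower). Synj1, Eps15, Picalm and Snap91 were higher and Bin1, Dnm1 and Epn1 lower. Amph had 0.53 ± 0.32 (adjusted p = 0.16) and Pip5k1c 0.00 ± 0.07 (adjusted p = 0.98). This comparison sets 1 sample against 2, and its fit takes the spread of the lone sample to be that of the other groups. The sum of 10 of 12 ribosomal protein genes was 54976 to 55337 in A53T at 0.2 µM and 127772 to 135281 in A53T DMSO, and all 10 were called lower; the part of that shift in the members' values was not tested.

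Synj1, Eps15, Picalm, Snap91 and Amph also moved together from library to library inside the groups. This set of 5 was formed after the values were seen, so it is described without a test. Over 14 libraries, their deviations from the group means correlated pairwise at 0.98 to 0.99 over 10 pairs, and over the 15 samples at 0.80 to 0.98. In A53T at 2.0 µM the highest library exceeded the lowest by 2.64 times for Picalm, 2.59 times for Synj1, 2.26 times for Eps15, 1.93 times for Snap91 and 1.79 times for Amph. All 5 were lowest in replicate 1 of that group, in replicate 1 of Empty Vector at 0.2 µM and in replicate 2 of Empty Vector at 2.0 µM, the same 3 libraries that stood apart on the within-group axis.

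Bin1 ran the other way, highest in those 3 libraries, and its deviations correlated with those of the 5 genes at -0.98 to -0.96. Dnm1, Pip5k1c and Epn1 hardly varied within groups, with the highest library at most 1.11 times the lowest for Dnm1, 1.097 times for Pip5k1c and 1.08 times for Epn1. By loading on the within-group axis, Synj1 stood at percentile 96 of all genes, Picalm at 94.8, Eps15 at 93.7, Snap91 at 90.9 and Amph at 90.3, and Bin1 at 10.6. Pip5k1c (58.3), Epn1 (46.7) and Dnm1 (44.6) lay near the middle. These correlations come from libraries that share the axis and the normalization, and they are given as a description.

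**Figure D3:**
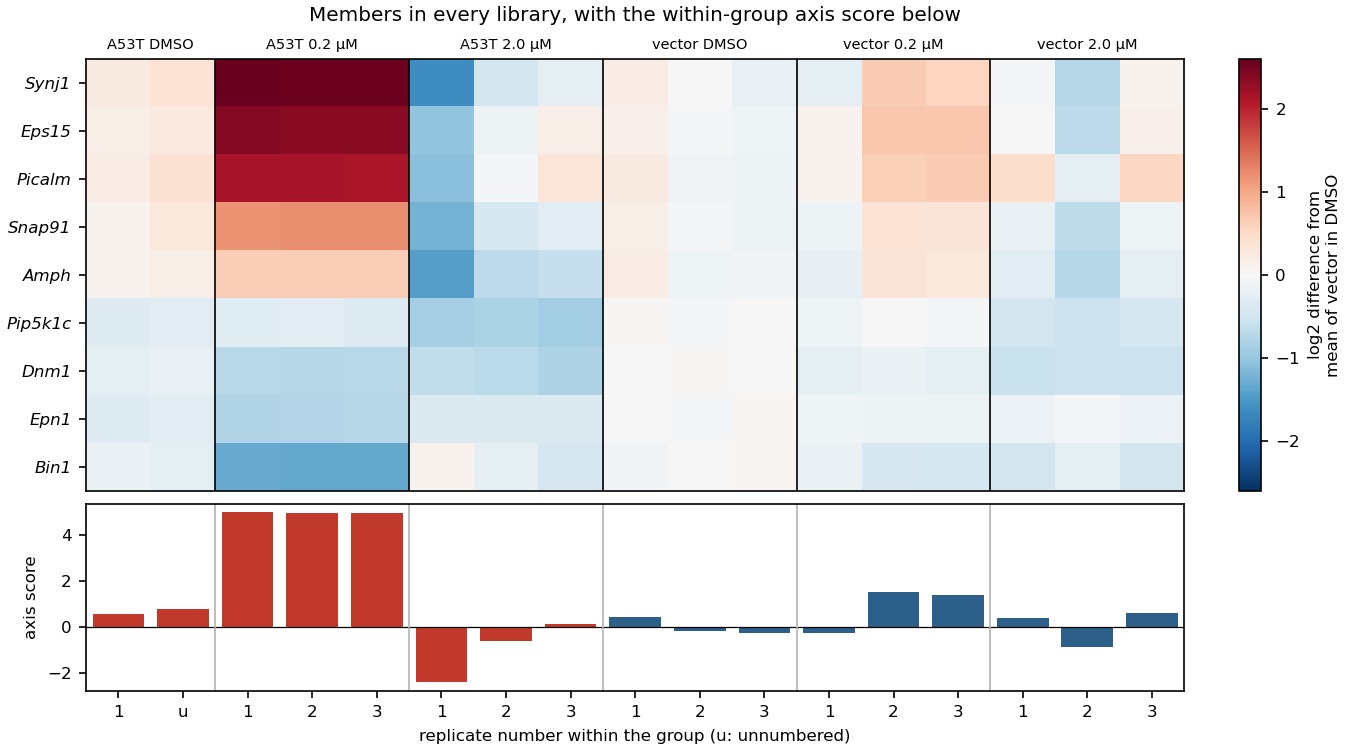
Upper panel: log2 difference of each gene (rows) from its mean in Empty Vector DMSO, for the 17 libraries (columns) in their groups, red higher and blue lower; lower panel: each library's score on the within-group axis. Synj1, Eps15, Picalm and Snap91 are deepest red in the A53T libraries at 0.2 µM, which score 4.98 to 5.02, and Bin1 is blue there.

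With the axis score added to the fit, an alternative chosen after the data were seen, the differences of Synj1 and Picalm at 0.2 µM in A53T were -0.052 and -0.23 (adjusted p = 0.798 and 0.362), that of Eps15 was 0.25 (adjusted p = 0.212), and Snap91 reversed to -0.52 (adjusted p = 0.00158). Because no other group scored near 5 on the axis, the low dose in A53T and the axis cannot be told apart in these libraries. Leaving out the 3 libraries that stood apart raised the number of members called in the interaction to 5, with -0.49 for Amph, 0.35 for Bin1, -0.68 for Synj1, -0.39 for Snap91 and -0.67 for Picalm. That fit also changed how many of all genes were called, to 37.8% in the interaction.

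For each member the 2 genes with the most similar pattern over the 15 samples were named by their Pearson r on the log2 scale. How many other genes come near such an r was not counted, so the names carry no reading of shared function. They were Dlgap3 (0.99) and Ccdc184 (0.99) for Dnm1, and Gng7 (0.99) and Pde2a (0.99) for Pip5k1c. Fam168a (0.997) and Map2 (0.99), the neuronal microtubule protein, were nearest to Synj1, and B3gat1 (0.99) and App (0.99), the amyloid precursor protein, to Amph. Heatr5b (0.99) and Clcn6 (0.99) were nearest to Eps15, Pcyt1b (0.996) and Tspyl4 (0.99) to Snap91, and Rab14 (0.99) and Sec23a (0.99), both of membrane traffic, to Picalm. Egln2 (0.996) and Erp29 (0.995) were nearest to Bin1, and Entpd6 (0.96) and Pik3r2 (0.96) to Epn1. Between members, Dnm1 and Pip5k1c had an r of 0.87 over the samples and of 0.35 for deviations from the group means. Such deviations also correlated less for the genes nearest to Dnm1 (0.745 and 0.60), Pip5k1c (0.76 and 0.80) and Epn1 (0.81 and 0.60). For those nearest to the other members the r of deviations was at least 0.9758.

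The wider machinery was followed in lists of genes that act beside the members. Of all genes, 17.9% were called lower and 19.7% higher at 2.0 µM in A53T, and 23.8% and 23.4% in Empty Vector. At 2.0 µM, clathrin coat and adaptor genes (20 of 24 measured) had 1 higher and 6 lower in A53T, and 3 higher and 6 lower in Empty Vector, with median log2 fold changes of -0.15 and -0.11. Curvature and scission genes (18 of 20) had 2 higher and 5 lower in A53T and 6 higher and 4 lower in Empty Vector, with medians of -0.10 and -0.07. Uncoating and phosphoinositide genes (17 of 17) had 2 higher and 3 lower in A53T and 3 higher and 5 lower in Empty Vector, with medians of -0.15 and -0.06. The medians of the 9 members were -0.56 and -0.31, and those over all genes 0.0087 and 0.0008. Some cell type markers had medians as low or lower in A53T and in Empty Vector. These were -0.61 and -0.57 for glutamatergic, -0.56 and -0.93 for GABAergic and -0.997 and -0.59 for fibroblast and vascular markers. The medians of astrocyte (-0.19 and -0.89) and pan-neuronal markers (-0.24 and -0.34) were lower than the members' in Empty Vector only. Those of ribosomal protein genes were 0.49 and 0.27, and of oligodendrocyte lineage markers 0.28 and -0.12. These medians describe each list and are not a test of it, and a median below 0 is not particular to the members.

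Among coat genes, Cltc, the clathrin heavy chain, fell at 2.0 µM in A53T (-0.32 ± 0.09, adjusted p = 0.019) and in Empty Vector (-0.26 ± 0.08, adjusted p = 0.021). The AP-2 subunit gene Ap2m1 fell in Empty Vector (-0.27 ± 0.07, adjusted p = 0.0046), with -0.02 ± 0.07 in A53T (adjusted p = 0.8). Syt1, the calcium sensor of release that AP-2 also recognises, fell in A53T (-2.03 ± 0.64, adjusted p = 0.027) and had -0.81 ± 0.57 in Empty Vector (adjusted p = 0.27). The scaffold gene Itsn1 did not pass in either culture, with 0.03 ± 0.13 in A53T and 0.27 ± 0.12 in Empty Vector (adjusted p = 0.87 and 0.075).

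Of the other dynamin genes, the widely expressed Dnm2 fell in A53T (-0.18 ± 0.06, adjusted p = 0.032) and in Empty Vector (-0.25 ± 0.05, adjusted p = 0.0017), and Dnm3 had -0.36 ± 0.22 and 0.05 ± 0.20 (adjusted p = 0.21 and 0.85). Pacsin1, a dynamin-binding F-BAR gene, fell in A53T (-1.38 ± 0.34, adjusted p = 0.008) and in Empty Vector (-0.91 ± 0.30, adjusted p = 0.025), and Sh3gl2, which codes endophilin A, fell in A53T (-0.99 ± 0.34, adjusted p = 0.037) with -0.18 ± 0.30 in Empty Vector (adjusted p = 0.66). Synj2, the relative of Synj1, fell in A53T (-0.84 ± 0.16, adjusted p = 0.0021) and in Empty Vector (-0.90 ± 0.15, adjusted p = 0.00027), and was lower in A53T than in Empty Vector in DMSO (-1.27 ± 0.16, adjusted p = 0.00044). The uncoating genes Dnajc6 (auxilin) and Hspa8 (its chaperone) passed in neither culture, with -0.37 ± 0.19 and 0.18 ± 0.08 in A53T and -0.11 ± 0.17 and 0.08 ± 0.07 in Empty Vector. Pip5k1a, the alpha isoform of the lipid kinase, rose in Empty Vector (0.31 ± 0.10, adjusted p = 0.021) and had -0.23 ± 0.11 in A53T (adjusted p = 0.11).

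The enzymes that add and remove the phosphates were measured too. Kinase genes (11 of 12) had 0 higher and 4 lower in A53T and 1 higher and 3 lower in Empty Vector at 2.0 µM. The shares of all genes called there were 17.9% lower and 19.7% higher in A53T, and 23.8% and 23.4% in Empty Vector. Cdk5 had 0.09 ± 0.11 in A53T and -0.19 ± 0.10 in Empty Vector (adjusted p = 0.55 and 0.14). Its activator gene Cdk5r1 fell in A53T (-1.52 ± 0.38, adjusted p = 0.0096), with -0.38 ± 0.34 in Empty Vector (adjusted p = 0.39). Dyrk1a fell in A53T (-0.82 ± 0.17, adjusted p = 0.0031) with -0.05 ± 0.15 in Empty Vector (adjusted p = 0.82), and Gsk3b rose in Empty Vector (0.91 ± 0.15, adjusted p = 0.00034) with -0.12 ± 0.17 in A53T (adjusted p = 0.58). Of 8 calcineurin genes, 1 was higher and 2 were lower in A53T, and 0 were higher and 4 lower in Empty Vector. The catalytic subunit gene Ppp3ca fell in A53T (-0.73 ± 0.18, adjusted p = 0.0091) and in Empty Vector (-0.69 ± 0.16, adjusted p = 0.0039), Ppp3cb fell in A53T (-0.72 ± 0.24, adjusted p = 0.033; Empty Vector -0.43 ± 0.21, adjusted p = 0.12), and the regulatory subunit gene Ppp3r1 fell in Empty Vector (-0.39 ± 0.07, adjusted p = 0.00053; A53T -0.13 ± 0.08, adjusted p = 0.19).

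Among the calls of these neighbouring genes in A53T at 2.0 µM, those of Synj2 and Dyrk1a held when any 1 library was left out. A block by the replicate numbers in the titles left A53T DMSO with 1 library. In that fit Synj2 was not called (-0.66), nor were Cltc (-0.35), Syt1 (-2.35), Dnm2 (-0.22) and Sh3gl2 (-1.10). Pacsin1 (-1.46), Cdk5r1 (-1.68), Ppp3ca (-0.79) and Ppp3cb (-0.84) were not called there either. With only the compared groups in the fit, Cltc, Syt1, Dnm2, Sh3gl2, Cdk5r1, Ppp3ca and Ppp3cb were not called (adjusted p = 0.0513 to 0.15). The calls of Cltc, Syt1, Dnm2, Sh3gl2 and Ppp3cb were lost without either A53T DMSO library (adjusted p = 0.085 to 0.178), and those of Pacsin1, Cdk5r1 and Ppp3ca without the unnumbered one (adjusted p = 0.0762 to 0.0823). Without A53T at 2.0 µM replicate 1, Syt1 was -1.24 (adjusted p = 0.0506), Sh3gl2 -0.60 (adjusted p = 0.0959) and Ppp3cb -0.40 (adjusted p = 0.0438). Sh3gl2 was also not called without Empty Vector DMSO replicate 2 (adjusted p = 0.0503), nor Dnm2 without A53T at 2.0 µM replicate 3 (adjusted p = 0.0573). In Empty Vector at 2.0 µM, the call of Cltc was lost with quantile normalization (-0.14, adjusted p = 0.396) and without DMSO replicate 1 or 2 or 2.0 µM replicate 2 (adjusted p = 0.0654 to 0.0906). Pacsin1 was not called without DMSO replicate 1 or 3 or 2.0 µM replicate 2 (0.0525 to 0.0879), nor Pip5k1a without DMSO replicate 2 or 3 or 2.0 µM replicate 1 or 3 (0.0602 to 0.0822). Quantile normalization took Ap2m1 in Empty Vector to -0.15, still called (adjusted p = 0.0121). In A53T at 2.0 µM it took Ap2m1 to -0.15, which was then called (adjusted p = 0.0348). With the axis score in the fit Ap2m1 was also called in A53T (-0.15, adjusted p = 0.00172).

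**Figure D4:**
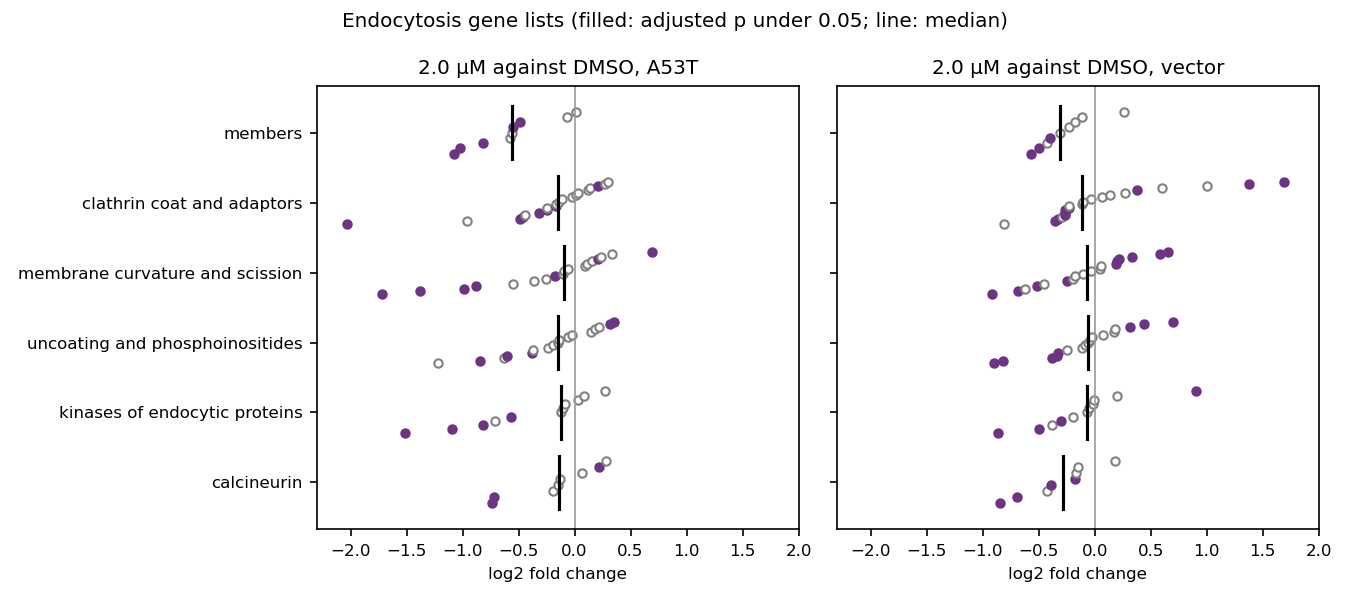
Log2 fold changes at 2.0 µM FK506 against DMSO in A53T (left) and Empty Vector (right) for the genes of each list (rows); each point is a gene, filled where its adjusted p was under 0.05, and the black line is the list's median. The members' medians are -0.56 and -0.31. Those of the other 5 lists drawn (coat, curvature, uncoating, kinase and calcineurin genes) lie between -0.29 and -0.06. Of the marker lists, not drawn, glutamatergic, GABAergic and fibroblast and vascular markers had medians as low as the members' in both cultures. Astrocyte and pan-neuronal markers had so in Empty Vector only.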

How the data were processed

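Messenger RNA libraries were made with a stranded kit, per the labels' protocols. The submitters' processing notes list FastQC, TopHat and HTSeq, with rat build rn6; their versions, and the use of strand in counting, are not given in the sources used here, so reads of a gene and of an antisense partner may not be separated. The authors deposited 1 table of normalized gene counts for 17 libraries, treated as a signal since how they were normalized is not stated in any source read; the values are not per length, so levels are not compared between genes. Samples were grouped by the construct and treatment in their labels.

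With R 4.3.3 and limma 3.58.1 (trend=TRUE), log2(value + 1) was modelled in 1 fit of 6 group means over 15 samples, with Benjamini-Hochberg adjustment over all 11247 genes, after a test on simulated data. The lowest mean value was 3.65 and no gene was removed. Fold changes on this scale understate the change of low genes. Libraries of a group entered as their mean where every pair had a noise ratio under 1.1, over 9868 genes with means of 10 to 3000. A RefSeq table of the later build GRCr8 gave names for 10458 labels and promoter sequences. The raw depth is unknown, so no counting interval is given.

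The members, the gene and marker lists and the choice of 3 libraries that stood apart were chosen with earlier results of these data known. All members were named in every comparison, 19 other endocytosis, kinase and calcineurin genes were named whatever their values, and 2 genes of most similar pattern per member. Alternatives were pseudocounts of 0.25 and 4, quantile and median-of-ratios scaling, a minimum mean of 100, only the compared groups, all 17 libraries as separate samples, a block by replicate number, each library left out and the 3 libraries left out. The fit with the axis score as a covariate was added after seeing the data. Microglia markers were not analysed here.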

Additional observations from a re-analysis of the deposited data

Results flagged for a closer look

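The interaction term in limma called 3 of the named neighbours of the members. It asks whether 2.0 µM FK506 acted differently in A53T and Empty Vector cultures. The same term called 14.6% of all genes (8.14% higher and 6.45% lower). Coat genes (20 measured) had 0 higher and 0 lower, curvature genes (18) 1 and 1, and uncoating genes (17) 1 and 1. Kinase genes (11) had 0 and 2, and calcineurin genes (8) 2 and 0. Whether the 3 calls exceed the share of all genes was not tested, so they are described gene by gene. They are not shown to be more than that background share, and each was lost in some alternative fits given below. Gsk3b, a kinase of dynamin, had an interaction of -1.03 ± 0.23 on the log2 scale (adjusted p = 0.012). It averaged 165.3 ± 13.91 normalized counts in A53T at 2.0 µM and 180.24 ± 23.46 in A53T DMSO, and 247.65 ± 12.31 in Empty Vector at 2.0 µM and 131.4 ± 1.948 in Empty Vector DMSO. Without the unnumbered A53T DMSO library the interaction was -0.90 (adjusted p = 0.0767).

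Dyrk1a, a kinase of amphiphysin and synaptojanin, had an interaction of -0.77 ± 0.23 (adjusted p = 0.04), with means of 362.68 ± 56.94 in A53T at 2.0 µM and 635.18 ± 56.77 in A53T DMSO, and 513.69 ± 44.84 in Empty Vector at 2.0 µM and 530.69 ± 45.17 in Empty Vector DMSO. Pip5k1a, the alpha isoform of the lipid kinase, had -0.55 ± 0.15 (adjusted p = 0.031), with means of 1585.5 ± 227.1 in A53T at 2.0 µM and 1852.7 ± 10.37 in A53T DMSO, and 1865.7 ± 187 in Empty Vector at 2.0 µM and 1497.6 ± 48.14 in Empty Vector DMSO. The call of Dyrk1a was lost without Empty Vector DMSO replicate 2 or 3, Empty Vector at 2.0 µM replicate 1 or 3, either A53T DMSO library, or A53T at 2.0 µM replicate 1 or 2 (adjusted p = 0.0635 to 0.164). That of Pip5k1a was lost without the same libraries other than A53T at 2.0 µM replicate 1 (adjusted p = 0.058 to 0.11).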

How the results depend on the processing

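Over 72 pairs of member and comparison, 1857 of 2016 alternative values kept their direction and side of the threshold, 40 changed sign while called in neither fit, 34 lost the call, 76 gained one and 9 reversed. Of 1596 values of the other named genes, 1451 kept both, 40 changed sign while called in neither fit, 65 lost the call, 38 gained one and 2 reversed. Pseudocounts of 0.25 and 4 and median-of-ratios scaling left every count of members called as it was. In Empty Vector at 0.2 µM the count of 1 member became 0 with quantile normalization and 2 with only the compared groups. It was 3 with all 17 libraries separate and 4 with the axis score, and ran from 0 to 2 with 1 library left out. Without the 3 libraries that stood apart it was 8, of which 3 were lower and 5 higher. Those higher were Amph (0.30), Snap91 (0.35), Synj1 (0.61), Picalm (0.64) and Eps15 (0.70). In Empty Vector at 2.0 µM the count of 3 became 6 without the 3 libraries and 9 with the axis score (2 to 4 with 1 library left out). For 2.0 against 0.2 µM in Empty Vector the count of 2 became 4 with 17 separate libraries, 6 without the 3 libraries and 7 with the axis score (2 to 5). For A53T against Empty Vector in DMSO the count of 3 became 1 with quantile normalization, 7 with only the compared groups and 6 without the 3 libraries (0 to 3). At 2.0 µM in A53T the count of 5 became 3 with only the compared groups (2 to 6). At 0.2 µM in A53T the count of 7 (4 higher, 3 lower) was 5 with the axis score, of which 0 were higher and 5 lower, and 6 to 7 with 1 library left out. For A53T against Empty Vector at 2.0 µM the count of 2 became 1 with only the compared groups, 7 without the 3 libraries and 5 with the axis score (2 to 3), and for the interaction the count of 0 became 5 without the 3 libraries and 1 with the axis score (0 to 1). The share of all genes called moved in the same fits. Without the 3 libraries it was 52.4% in Empty Vector at 0.2 µM, 61.2% at 2.0 µM and 48% between the doses, 39% for A53T against Empty Vector in DMSO and 33.5% at 2.0 µM, and 37.8% in the interaction; with the axis score these were 33.2%, 66.8%, 49.7%, 34.2%, 34.7% and 25.9%, and 29.5% at 0.2 µM in A53T. With only the compared groups it was 37.1% for A53T against Empty Vector in DMSO, 15.9% at 2.0 µM in A53T and 6.12% for A53T against Empty Vector at 2.0 µM.

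All reversals came with the axis score as a covariate: Amph -0.17 and Picalm 0.20 in Empty Vector (0.2 µM against DMSO for Amph, 2.0 against 0.2 µM for Picalm), Amph -0.93, Synj1 -0.052, Snap91 -0.52 and Picalm -0.23 in A53T at 0.2 µM, Bin1 -0.29 and Cdk5 -0.15 in A53T at 2.0 µM, Eps15 0.29 for A53T against Empty Vector at 2.0 µM, and Eps15 0.37 and Ppp3ca 0.38 in the interaction; the cause was not tested. Same-numbered libraries deviated together (r above 0.1) in 9 of 22 pairs by title and 11 of 26 by column, with r from -0.51 to 0.669. Pairs with different numbers were not compared, so whether the numbers pair the samples was not tested. The replicate block by title numbers called 0 members for A53T against Empty Vector in DMSO and 2 at 2.0 µM in A53T, where 2.94% and 14% of all genes were called, and the block by column numbers 2 and 5. The title block also ended the interaction calls of Gsk3b (-0.99, adjusted p = 0.0775), Dyrk1a (-0.78, adjusted p = 0.138) and Pip5k1a (-0.59, adjusted p = 0.0992). Depth limits cannot be stated because the raw depth is unknown.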
